A study of Sus scrofa with 11 samples.

Results

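A set of 9 genes that mark monocytes and macrophages or carry their growth factor signals was followed in healing pig skin: CD14, CD68, CSF1R, CSF1, CSF2RA, CSF2RB, AIF1, SPI1 and LYZ. They were chosen by gene symbol among the 30376 genes of the deposited expression values, and all 9 were found, each once. Messenger RNA had been sequenced from full-thickness dorsal skin wounds of female Yucatan minipigs, taken on day 10, and each wound gave 1 library. The diabetic group was 7 wounds of 1 minipig given the beta cell toxin streptozotocin by intravenous infusion and later insulin, which was stopped before wounding. The non-diabetic group was 4 wounds of 1 minipig that received the same wounds, and the sources used here name no sham infusion for it. With 1 animal per group, the effect of diabetes and the difference between 2 animals cannot be told apart, and every p-value below measures only the spread between wounds of the same animals.

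Monocytes leave the blood, enter a wound and become macrophages, which take up debris, release inflammatory signals and later support new tissue. Their survival and numbers depend on colony-stimulating factors. CSF1, made by fibroblasts, endothelial cells and others, binds the receptor tyrosine kinase CSF1R, while GM-CSF binds a receptor made of a ligand-specific alpha chain, CSF2RA, and a signalling chain, CSF2RB, that the receptors for interleukin 3 and interleukin 5 also use. CD14 presents bacterial lipopolysaccharide to TLR4, CD68 is a heavily glycosylated protein of macrophage lysosomes, AIF1 is a calcium-binding protein of macrophages also called IBA1, SPI1 encodes the myeloid transcription factor PU.1, and LYZ encodes the secreted antibacterial enzyme lysozyme.

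Levels are given as FPKM, fragments scaled by gene length and by a divisor for each library, which is a per-length scale. The reads behind each value could be recovered, and between 28314785 and 40168372 reads per wound fell on genes. The divisor was 0.854 to 1.18 times the reads on genes of the same wound, so it was not simply their sum. Diabetic replicate 4 and non-diabetic replicate 1 stood apart from the other 9 wounds. KRT5, a keratin of basal keratinocytes, was at 29.2 and 211 FPKM in them and at 817 to 2861 FPKM elsewhere. Diabetic replicate 3 alone held skeletal muscle transcripts, with a summed level of 1899 FPKM over 8 muscle genes against 5.76 to 10.6 FPKM in the other wounds. All 20 further macrophage genes examined passed the filter on low values, which asked for 4 or more libraries at 0.5 FPKM or above. In bulk tissue, fewer cells of a type and less RNA per cell cannot be told apart.

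Sequences bear on how the values should be read, and all were taken from the RefSeq annotation of the pig genome build Sscrofa11.1. CSF2RA lies on an unplaced scaffold (bases 721726 to 743706, plus strand), and a second gene, LOC110257903, also described as a GM-CSF receptor alpha chain, lies on the annotated Y chromosome (chrY:5019990-5035462, plus strand). Their coding sequences were 98.9% identical over 1227 aligned bases, with 14 differing bases. The last 174 coding bases of CSF2RA, 1228 to 1401, had no counterpart in the copy. Bases 352 to 441 of both coding sequences are shown because they hold 3 of the differences, T368C, G386C and A437G, counted from the first coding base and with the CSF2RA base first. Capitals mark the differing bases.
CSF2RA: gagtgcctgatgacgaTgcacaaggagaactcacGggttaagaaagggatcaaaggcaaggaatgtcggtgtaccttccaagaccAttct
LOC110257903: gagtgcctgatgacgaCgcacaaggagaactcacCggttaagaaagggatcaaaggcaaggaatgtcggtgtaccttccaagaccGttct

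The transcripts of these genes shared 964 distinct runs of 50 bases, which is 53.6% of the runs of CSF2RA and 64.1% of those of the copy. A read lying wholly within such a run carries no base that tells the genes apart. CD68 (chr12:52874754-52877256, plus strand) also has a related gene, LOC100520753, on chromosome 8, but that coding sequence was 84.8% identical over 936 aligned bases and shared only 13 runs of 50 bases with CD68. No other member's transcript aligned to a further locus.

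The upstream sequence of LYZ is shown because it held the most matches to the core of the PU.1 recognition sequence among the 8 members whose upstream sequences were read. The 250 bases before the gene start are printed 5′ to 3′ on the gene's strand, and capitals mark GAGGAA or its reverse complement, TTCCTC. The window is chr5:33612343-33612592, on the plus strand.
LYZ: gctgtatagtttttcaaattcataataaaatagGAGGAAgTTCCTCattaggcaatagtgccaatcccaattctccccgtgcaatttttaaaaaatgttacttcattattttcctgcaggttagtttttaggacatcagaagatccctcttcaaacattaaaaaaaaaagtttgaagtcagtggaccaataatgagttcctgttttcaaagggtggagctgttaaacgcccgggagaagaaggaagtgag

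Matches were counted from 250 bases before to 50 bases after the gene start, on both strands. GAGGAA was found for 3 of these 8 members (CSF2RB, AIF1 and LYZ) and in 26.1% of the 20659 promoters of protein-coding genes. LYZ carried 2 matches, with first bases 217 and 210 bases before its start. The longer form GAGGAAGT, which contains GAGGAA, was found for LYZ alone, against 2.15% of promoters. TTGCNNAA, the core bound by C/EBP factors, was found for CSF2RB and LYZ, against 9.66% of promoters. TATAAA was found for none of the 8, against 11.6% of promoters. These are matches of letters and show no binding.

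The question put to the values was whether the macrophage genes differed between diabetic and non-diabetic wounds. CD14 and CSF2RA were higher in diabetic wounds, and the other 7 members did not pass the test. The test was limma on log2(FPKM + 0.5) over all 13956 genes that passed the filter, with Benjamini-Hochberg adjustment, and a call needed both an adjusted p below 0.05 and a log2 fold change beyond 0.5 in either direction. All 9 members passed the filter. Over the whole table the calls took in 1.35% of genes as higher and 1.66% as lower (188 and 231 genes, or 152 and 293 when the libraries were scaled to equal summed FPKM), against 2 and 0 of the 9 members. An unadjusted p under 0.05 in limma was reached by 2567 of the 13956 tested genes, and by 2 higher and 0 lower members. Limma-voom on the recovered reads also called 2 members higher and 0 lower. All 9 fitted log2 fold changes were above 0, with a median of 0.37, while 52.3% of all tested genes were above 0 with a median of 0.014. The sign for SPI1 turned under 2 other scalings, quantile normalization and equal summed FPKM, so this count of 9 depends on the scaling. Every diabetic wound lay above every non-diabetic wound for 2 members, against 2.69% of all tested genes, and below for 0 members, against 2.96%.

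**Figure D1:**
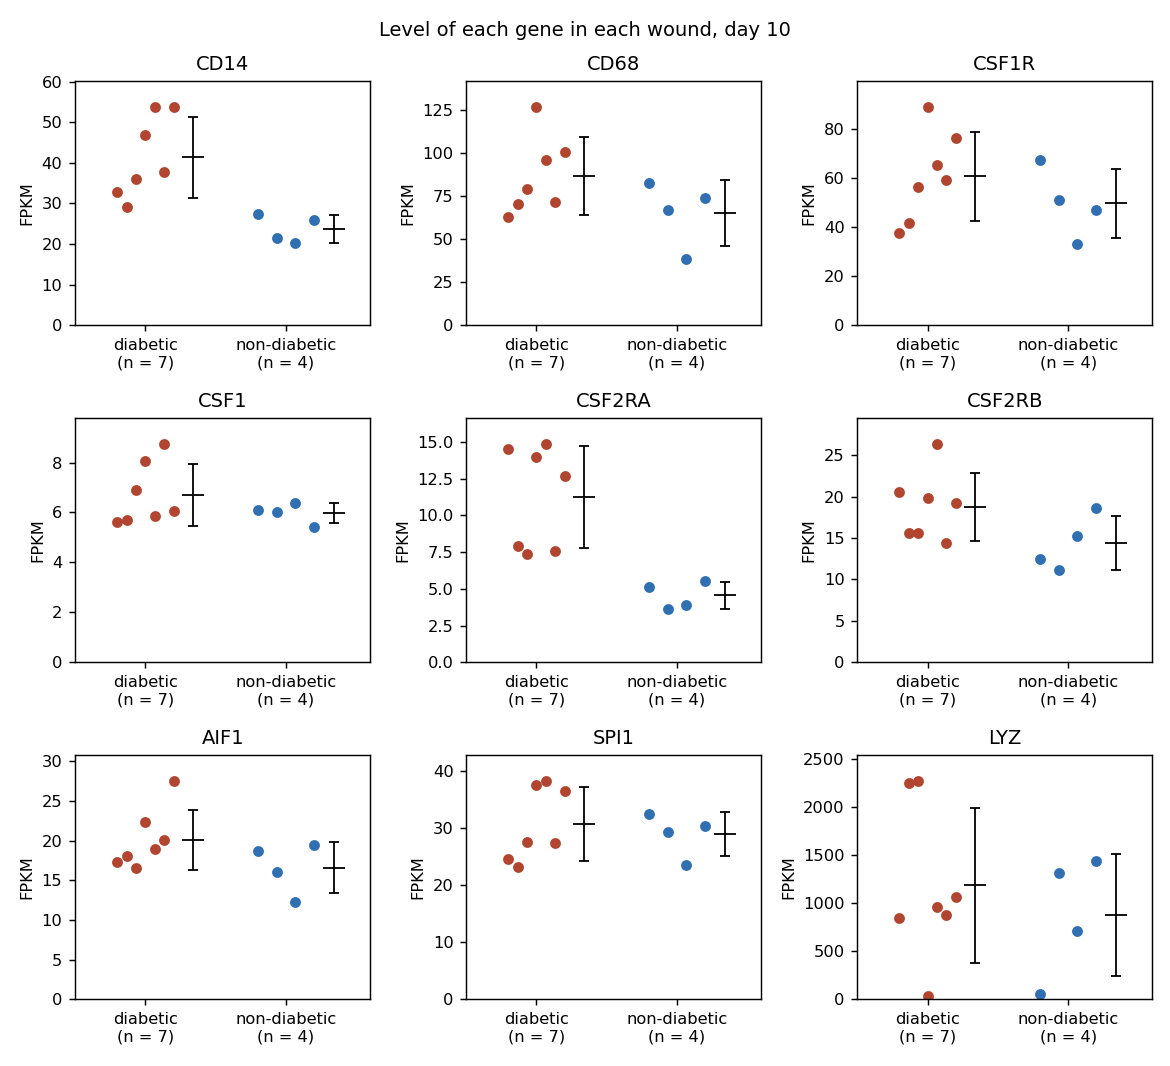
FPKM of each of the 9 genes (vertical axis, from 0, scaled per gene) in the 7 diabetic and 4 non-diabetic wounds, 1 point per wound in replicate order, with the group mean and SD in black. The groups are separate for CD14 and CSF2RA and overlap for the other 7 genes.

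CD14, the lipopolysaccharide co-receptor (chr2:142348036-142349686, minus strand), was higher in the diabetic wounds. Its level in diabetic replicates 1 to 7 was 32.8, 29.0, 36.1, 46.7, 53.7, 37.6 and 53.6 FPKM. In non-diabetic replicates 1 to 4 it was 27.3, 21.5, 20.2 and 25.9 FPKM. The lowest diabetic wound lay just above the highest non-diabetic wound, so the groups did not overlap, and between 1074 and 2755 reads stood behind each value. The means were 41.4 ± 9.98 FPKM (SD, n = 7) and 23.7 ± 3.40 FPKM (SD, n = 4), a ratio of 1.74. The log2 fold change was 0.76 with a standard error of 0.18 and an adjusted p of 0.0390 (limma), and the exact two-sided permutation test over the 330 splits gave p = 0.00909, where 0.00303 is the smallest possible. This call was narrow. It was lost, at adjusted p of 0.0587 to 0.139, when any of diabetic replicates 3 to 7 or of non-diabetic replicates 1 to 4 was left out, at 0.0918 without both wounds of low KRT5 and at 0.0552 without the filter on low values, while the log2 fold change stayed between 0.59 and 0.86 in the 24 alternatives.

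CSF2RA, the ligand-binding chain of the GM-CSF receptor, had the largest fitted fold change of the 9 genes. The diabetic replicates were at 14.5, 7.93, 7.37, 14.01, 14.8, 7.56 and 12.7 FPKM. The non-diabetic replicates were at 5.14, 3.64, 3.89 and 5.53 FPKM. All diabetic wounds were above all non-diabetic wounds, and within the diabetic group replicates 2, 3 and 6 lay together at the low end, away from the other 4. The means were 11.3 ± 3.48 FPKM (SD, n = 7) and 4.55 ± 0.928 FPKM (SD, n = 4), from 198 to 887 reads per wound. Its fitted log2 fold change was 1.18 with a standard error of 0.23 and an adjusted p of 0.0182 (limma), and the exact permutation p was 0.00606. Without non-diabetic replicate 2 or 3 the adjusted p was 0.0615 and 0.0666 in limma, and without both wounds of low KRT5 it was 0.0627.

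CSF2RA was also read beside its near-identical Y-chromosome copy, a comparison added after the values had been seen. The copy was at 2.87, 3.23, 3.54, 3.60, 6.66, 4.25 and 3.81 FPKM in the diabetic replicates. It stood at 6.05, 4.44, 3.73 and 7.47 FPKM in the non-diabetic replicates, so its groups overlapped, and its means were 3.99 ± 1.25 and 5.42 ± 1.67 FPKM (log2 fold change −0.40, adjusted p = 0.365 in limma). In people CSF2RA lies in the pseudoautosomal region that the X and Y chromosomes share. The minipigs were female, and 2 other genes of the annotated Y chromosome, SRY and EIF1AY, had 0 reads in all 11 wounds. DHRSX and CD99, also placed on the annotated Y chromosome, had 113 to 310 and 6590 to 13077 reads per wound. The locus from which the reads on the copy came was not tested.

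Of the reads given to either gene, the copy held 14.1% to 31.7% in diabetic wounds and 44.2% to 52.8% in non-diabetic wounds. The shares of the groups did not overlap, at 23.4% ± 6.39 (SD, n = 7) against 49.1% ± 3.58 (SD, n = 4), with an exact permutation p of 0.00303. Added together, CSF2RA and the copy averaged 15.3 ± 4.04 FPKM over the diabetic wounds against 9.97 ± 2.57 FPKM. The sums overlapped between groups, from 10.9 to 21.5 FPKM against 7.63 to 13.0 FPKM, and the exact permutation p was 0.0424. With this copy and the further related gene LOC102161330 added to CSF2RA in the fit over all genes, the log2 fold change was 0.63 and the adjusted p 0.134 (limma), so the call was lost. The part that the division of reads between the genes plays in the CSF2RA result was not tested further.

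**Figure D2:**
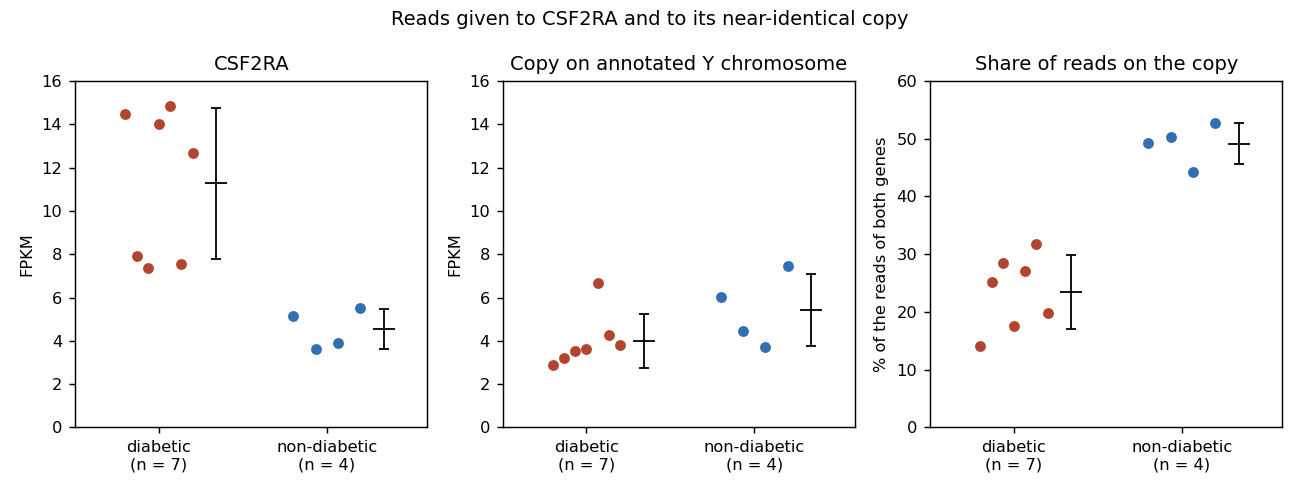
FPKM of CSF2RA (left), FPKM of its copy on the annotated Y chromosome (middle) and the copy's percentage of the reads of both genes (right), 1 point per wound, with group mean and SD in black. CSF2RA is higher in all 7 diabetic wounds, the copy overlaps between groups, and its share is 14.1% to 31.7% in diabetic against 44.2% to 52.8% in non-diabetic wounds.

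CSF2RB, the signalling chain (chr5:10816366-10840613, minus strand), did not pass the test. The diabetic replicates were at 20.6, 15.6, 15.6, 19.8, 26.3, 14.3 and 19.3 FPKM. Non-diabetic replicates 1 to 4 were at 12.4, 11.2, 15.3 and 18.6 FPKM. The lowest 3 diabetic wounds, replicates 2, 3 and 6, were the same wounds in which CSF2RA was lowest, and they lay below non-diabetic replicate 4. Its log2 fold change was 0.37 (95% interval −0.01 to 0.76, adjusted p = 0.292 in limma), and the exact permutation p was 0.0879.

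Within each wound, CSF2RA was set against CSF2RB, since a ratio of genes from the same library is free of the scaling between libraries. The FPKM ratio was 0.474 to 0.708 in diabetic and 0.254 to 0.414 in non-diabetic wounds, without overlap. On the log2 scale the ratio was higher by 0.81 in diabetic wounds, with an exact permutation p of 0.00303 and 0.00909 after adjustment over the 3 ratios examined. When LOC110257903 and LOC102161330 were added to CSF2RA, the difference was 0.25 and the exact permutation p 0.0909 (0.136 after adjustment).

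The ligand and receptor of the other growth factor axis, CSF1 and CSF1R, did not pass the test. CSF1 (chr4:110178466-110198232, minus strand) had the lowest mean of the 9 genes per length over the 11 wounds, at 5.61, 5.70, 6.92, 8.04, 5.85, 8.73 and 6.05 FPKM in the diabetic replicates. Without diabetes the replicates were at 6.12, 6.00, 6.39 and 5.43 FPKM. Diabetic replicates 3, 4 and 6 were above every non-diabetic wound, and the other 4 lay within or close to their range. The log2 fold change of CSF1 was 0.14 (95% interval −0.15 to 0.42, adjusted p = 0.632 in limma).

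CSF1R (chr2:151102138-151130311, minus strand) was at 37.5, 41.5, 56.2, 88.9, 65.3, 59.1 and 76.1 FPKM in the diabetic replicates. In the non-diabetic animal the wounds were at 67.4, 51.0, 33.0 and 46.9 FPKM. The groups overlapped over most of their range, and the highest wound of each was the wound with the least KRT5. The log2 fold change was 0.28 (95% interval −0.27 to 0.82, adjusted p = 0.610 in limma). The FPKM ratio of CSF1 to CSF1R was 0.0795 to 0.150 in diabetic and 0.0907 to 0.193 in non-diabetic wounds. Its log2 difference of −0.14 did not pass (exact permutation p = 0.591, adjusted over the 3 ratios 0.591), and without non-diabetic replicate 3 it was 0.068.

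CD68, the lysosomal marker, was at 62.7, 70.2, 79.3, 127, 95.7, 71.4 and 101 FPKM in the diabetic replicates. The non-diabetic replicates were at 82.9, 66.8, 38.4 and 73.7 FPKM. Only 3 of the 7 diabetic wounds exceeded every non-diabetic wound, and all 7 lay above non-diabetic replicate 3. Its fitted log2 fold change was 0.42 (95% interval −0.08 to 0.93, adjusted p = 0.367 in limma), and with LOC100520753 added it was 0.45 (adjusted p = 0.316 in limma). The FPKM ratio of CD14 to CD68 was 0.369 to 0.561 in diabetic wounds and 0.322 to 0.526 in non-diabetic wounds, where replicate 3 alone was above 0.352. The log2 difference of this ratio was 0.34, with an exact permutation p of 0.0697 and 0.105 after adjustment over the 3 ratios. Leaving out non-diabetic replicate 3 moved it to 0.51 with an exact permutation p of 0.00833 and 0.0125 after the same adjustment. Leaving out diabetic replicate 4 moved it to 0.41 with an exact permutation p of 0.0429, which missed the threshold after adjustment (0.0643).

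AIF1 (chr7:23711752-23731191, plus strand) was at 17.3, 18.1, 16.5, 22.4, 19.0, 20.1 and 27.5 FPKM in the diabetic replicates. Non-diabetic replicates 1 to 4 were at 18.7, 16.1, 12.3 and 19.4 FPKM. The groups overlapped, and diabetic replicate 7 was the highest of all wounds. Its log2 fold change was 0.27 (95% interval −0.07 to 0.61, adjusted p = 0.397 in limma). The annotated gene overlaps LST1 on the same strand and NCR3 on the opposite strand, and whether counting used strand is not given in the sources used here, so reads of these genes may not be separated.

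SPI1, which encodes PU.1 (chr2:15227850-15245679, plus strand), was at 24.5, 23.2, 27.5, 37.4, 38.1, 27.4 and 36.4 FPKM in the diabetic replicates. Without diabetes the replicates were at 32.4, 29.4, 23.5 and 30.4 FPKM. The diabetic wounds fell into a lower group of 4 and a higher group of 3 (replicates 4, 5 and 7), and the non-diabetic wounds lay between 23.5 and 32.4 FPKM. Its log2 fold change of 0.07 did not pass the test (95% interval −0.28 to 0.42, adjusted p = 0.869 in limma).

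**Figure D3:**
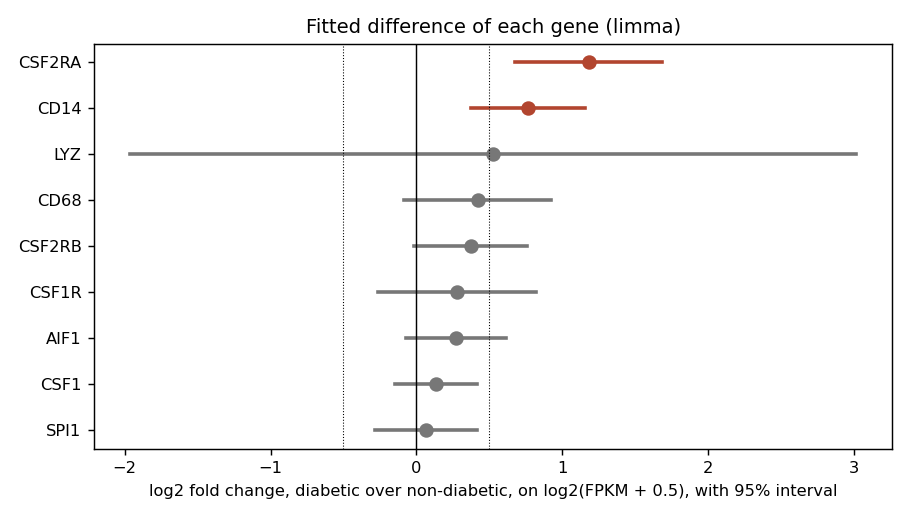
Fitted log2 fold change of each gene, diabetic over non-diabetic wounds, on log2(FPKM + 0.5) (horizontal axis), with the 95% interval from limma. CSF2RA and CD14, in red, were called higher, the grey genes were not called, dotted lines stand at −0.5 and 0.5, and the interval of LYZ runs from −1.96 to 3.01.

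LYZ (chr5:33612593-33618953, plus strand) was the most abundant and the most variable of the 9 genes. The diabetic replicates were at 840.1, 2241, 2263, 38.9, 955, 881 and 1061 FPKM. In the non-diabetic animal the wounds were at 57.9, 1309.95, 715 and 1432 FPKM. Diabetic replicate 4 and non-diabetic replicate 1 were each more than 10 times below the rest of their group, and these are the wounds in which KRT5 was lowest. The coefficient of variation was 67.9% in diabetic and 71.8% in non-diabetic wounds, against at most 30.9% for the other 8 genes. Its fitted log2 fold change was 0.53 with a standard error of 1.14 (adjusted p = 0.855 in limma). Without the 2 wounds of low KRT5 it was 0.18 (adjusted p = 0.862 in limma), without non-diabetic replicate 1 alone it was −0.53, and without diabetic replicate 4 alone it was 1.24.

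After each group's mean was taken away, the log2 values of LYZ and KRT5 had a correlation of 0.93 over the 11 wounds, and of 0.46 over the 9 wounds without the low pair. For every other member the correlation with KRT5 was negative, both in the 11 and in the 9 wounds. For CD68, CSF1R and SPI1 it was −0.71, −0.73 and −0.62, and in the 9 wounds −0.56, −0.66 and −0.73. CD14 and CSF2RA, the called genes, were at −0.50 and −0.46, and in the 9 wounds at −0.80 and −0.48. CSF1, CSF2RB and AIF1 were at −0.49, −0.13 and −0.46, and in the 9 wounds at −0.21, −0.46 and −0.66. These are descriptions over wounds of the same 2 animals. The part of keratinocyte content in the levels of the members was not tested.

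**Figure D4:**
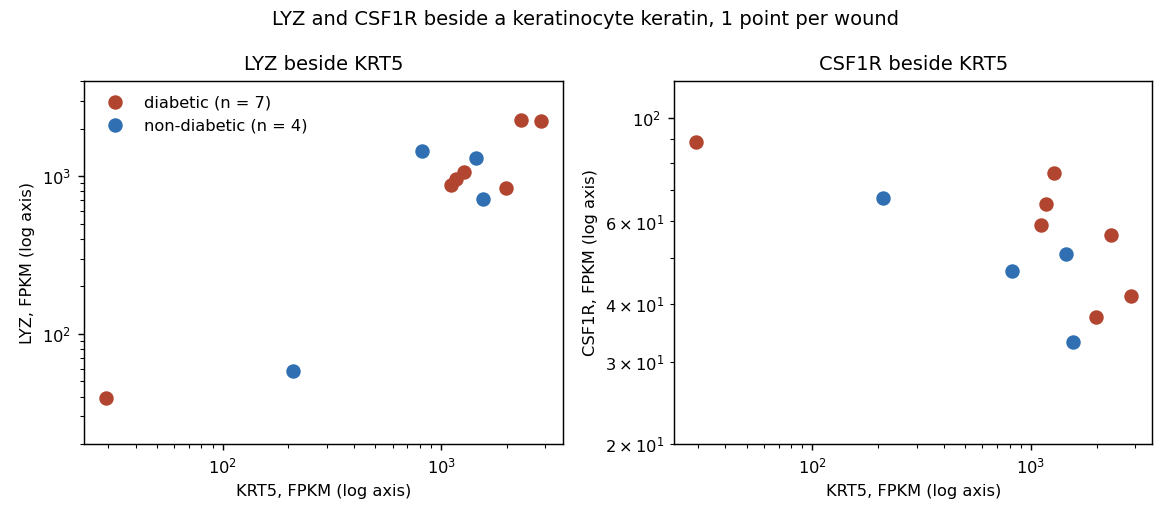
FPKM of LYZ (left) and CSF1R (right) against FPKM of the keratinocyte keratin KRT5, both on log axes, 1 point per wound. Diabetic replicate 4 and non-diabetic replicate 1, at 29.2 and 211 FPKM of KRT5, are the lowest wounds for LYZ and the highest of their groups for CSF1R.

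Per length, the mean level over the 11 wounds ran in the order LYZ (1072 FPKM), CD68 (79.0), CSF1R (56.6), CD14 (35.0), SPI1 (30.02), AIF1 (18.8), CSF2RB (17.2), CSF2RA (8.83) and CSF1 (6.44 FPKM). All neighbours in this order overlapped in their range over wounds. CD68 was above CSF1R in 11 of 11 wounds and CSF2RB above CSF2RA in 11 of 11, whereas CD14 was above SPI1 in the 7 diabetic wounds and in 0 of the 4 non-diabetic wounds, and CSF2RA above CSF1 in 6 of the 7 and in 1 of the 4. In the non-diabetic wounds alone CD14 and CSF2RA stood lower in this order. Mean CD14 was 23.7 FPKM, below the 28.9 FPKM of SPI1, and mean CSF2RA was 4.55 FPKM, below the 5.98 FPKM of CSF1. The place of CSF2RA depends on its Y-chromosome copy. With the copy added, CSF2RA was at 11.2, 8.08, 7.63 and 13.0 FPKM in non-diabetic replicates 1 to 4. CSF1 was lower in each of these wounds, at 6.12, 6.00, 6.39 and 5.43 FPKM.

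The members also varied together from wound to wound within a group. Of the 36 pairs, CD14 with SPI1 had the highest correlation of deviations from the group means, 0.95, followed by CD68 with CSF1R at 0.91. The chains of the GM-CSF receptor, CSF2RA and CSF2RB, had 0.80. The 10 pairs among CD14, CD68, CSF1R, AIF1 and SPI1, a grouping made after the values were seen, lay between 0.71 and 0.95. The 8 pairs with CSF1 lay between −0.45 and 0.38, and the 8 pairs with LYZ between −0.62 and −0.05. The values of LYZ depended on the low KRT5 wounds. Without both of these wounds, LYZ was at 0.31 with CD68, 0.05 with CSF1R and 0.02 with AIF1. Its remaining pairs then lay between −0.46 and −0.14. Diabetic replicate 5 was the highest of its group for 4 members, and non-diabetic replicate 3 the lowest of its group for 5. All of these values share libraries, animals and the scaling between libraries.

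**Figure D5:**
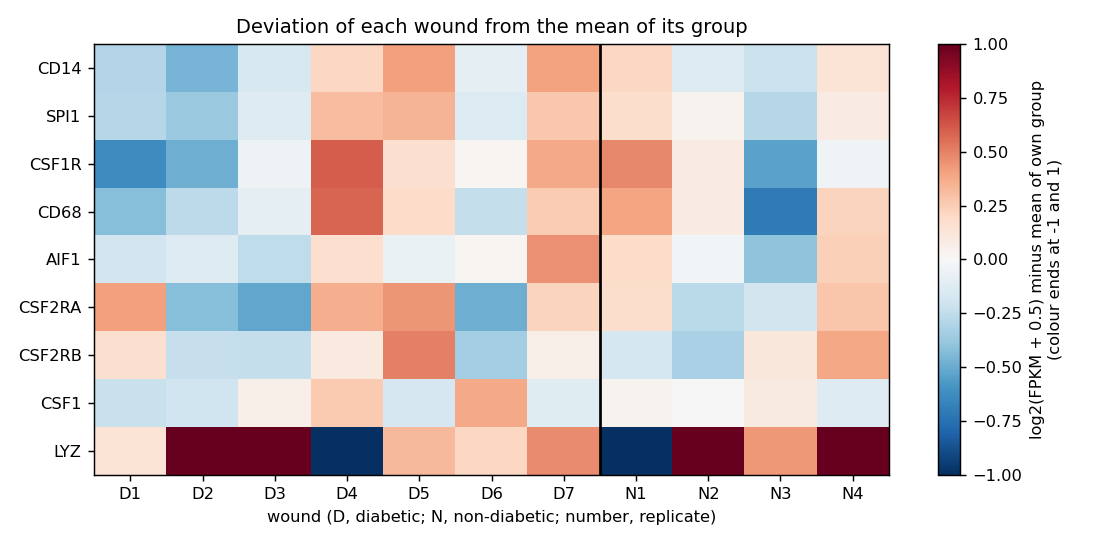
Deviation of log2(FPKM + 0.5) from the mean of the wound's own group, for each gene (rows) and wound (columns, D diabetic, N non-diabetic), with colour ending at −1 and 1. CD14, SPI1, CSF1R, CD68 and AIF1 share most of their pattern, while LYZ runs past the colour scale in 6 wounds.

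Among all tested genes, those whose deviations were most like a member's differed from member to member. For CD14 they were RPS6KL1 (correlation 0.95), SPI1 (0.95) and YIPF5 (0.95), and for SPI1 they were TNFRSF1B (0.98), EMILIN2 (0.96) and CD14. For CD68 they were CD37 (0.97), LOC100152824 (0.96) and DUSP23 (0.95). For CSF1R they were ARHGEF11 (0.99), SWI5 (0.98) and OLFM1 (0.98). For AIF1 they were CTSS (0.97), ITGAX (0.96) and LOC100523732 (0.96). ITGAX is an integrin of myeloid cells and CTSS a lysosomal protease.

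For CSF2RA the most alike genes were MIR155 (0.94), TFEC (0.92) and CDK6 (0.90), and for CSF2RB they were PDXK (0.94), LOC100517285 (0.93) and FADS1 (0.93). For CSF1 they were OPRL1 (0.94), LOC100520216 (0.93) and ADCYAP1R1 (0.92). For LYZ they were XDH (0.99), KLK6 (0.99) and PSORS1C2 (0.99), and KLK6 is a kallikrein protease. Of the 27 genes, FADS1 was called lower and CD14 higher in diabetic wounds (limma).

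The other colony-stimulating factors and their receptors were compared from lists of related genes. Of 7 tested ligands and receptors outside the members, IL3RA was called higher (limma) and the median log2 fold change was 0.31. IL3RA, the interleukin 3 receptor chain that pairs with CSF2RB and whose row this annotation classes as non-coding RNA, averaged 16.6 ± 2.87 FPKM (SD, n = 7) with diabetes and 8.88 ± 1.35 FPKM (SD, n = 4) without it. Its groups did not overlap (log2 fold change 0.86, adjusted p = 0.00644 in limma), and it lies on the same scaffold as CSF2RA. CSF2, IL5 and IL5RA were under the filter. CSF2, which encodes GM-CSF itself, averaged 0.315 ± 0.281 FPKM (SD, n = 7) against 0.358 ± 0.192 FPKM (SD, n = 4), with an exact permutation p of 0.658.

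Of 18 tested genes listed as signalling below these receptors, PIK3R5, a regulatory subunit of a phosphoinositide 3-kinase, was called higher. It was at 4.25 ± 0.582 FPKM (SD, n = 7) against 2.86 ± 0.444 FPKM (SD, n = 4), with an adjusted p of 0.0460 (limma). Its log2 fold change of 0.5003 lay barely beyond the cut of 0.5. Whether PIK3R5 acts below these receptors was not tested. The median of this list was 0.07, its most abundant gene was the adaptor GRB2 (59.3 and 51.9 FPKM, adjusted p = 0.277 in limma), and CBL was under the filter. Of 15 tested myeloid transcription factors, IRF4, which also acts in B and plasma cells, was called higher, at 2.92 ± 0.870 FPKM against 0.889 ± 0.411 FPKM (log2 fold change 1.32, adjusted p = 0.0125 in limma). The median of this list was 0.15, the most abundant factor was CEBPD (160 and 151 FPKM, adjusted p = 0.927 in limma), and CEBPE and GFI1 were under the filter.

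No gene listed beside CD14 or CD68 was called. Over all tested genes 1.35% were called higher and 1.66% lower, so lists this short would hold few calls at that share. An unadjusted p under 0.05 in limma was reached by 2567 of the 13956 tested genes. Unadjusted counts here and in the lists below are to be read beside that background. Of 11 tested genes, those of lipopolysaccharide recognition together with the Toll-like receptors TLR1, TLR2 and TLR6, 0 were called by limma or by limma-voom. Their median log2 fold change was 0.03, and 1 of them, TLR6, had an unadjusted p under 0.05 (0.0429 in limma). LY96, which binds lipopolysaccharide beside TLR4 and was the most abundant gene of this list, was at 24.0 and 23.9 FPKM (adjusted p = 0.948 in limma). Of 6 tested genes of the LAMP family and lysosomal membrane, 0 were called by limma or by limma-voom and 0 had an unadjusted p under 0.05, with a median of 0.04. CD63 was the most abundant (400.2 and 382 FPKM, adjusted p = 0.831 in limma), and LAMP5 was under the filter.

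Other macrophage markers were also compared. Of 20 tested, MARCO, ITGAM and MRC1 were called higher and MPEG1 was called lower, and the median log2 fold change was 0.33. The scavenger receptor MARCO averaged 3.77 ± 1.48 FPKM (SD, n = 7) with diabetes and 0.659 ± 0.0779 FPKM (SD, n = 4) without it (log2 fold change 1.80, adjusted p = 0.00419 in limma). ITGAM, the integrin chain CD11b, was at 3.72 ± 1.29 against 1.26 ± 0.109 FPKM (1.22, adjusted p = 0.00585 in limma). MRC1, the mannose receptor, was at 22.1 ± 3.20 against 13.0 ± 1.16 FPKM (0.73, adjusted p = 0.00585 in limma). MPEG1, a pore-forming protein of phagocytes, was at 25.9 ± 4.73 against 40.3 ± 4.21 FPKM (−0.64, adjusted p = 0.0338 in limma). None of these 4 genes overlapped between groups. The complement subunit C1QB was the most abundant, at 322 and 196 FPKM (adjusted p = 0.223 in limma). Limma-voom called 3 of the list higher and 0 lower, with MPEG1 at an adjusted p of 0.106.

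Markers of other cells were set beside the members. None of the 10 monocyte markers was called by limma or by limma-voom, and 1 was higher and 1 lower at an unadjusted p under 0.05. Their summed level was 117 FPKM in diabetic replicate 4 and 390.2 FPKM in non-diabetic replicate 1, against 3860 to 12650 FPKM in the other wounds. This sum was almost wholly S100A8, S100A9 and S100A12, with means of 1753, 1905 and 2677 FPKM in diabetic wounds. No other gene of the list had a group mean above the 29.7 FPKM of VCAN in non-diabetic wounds. The sum therefore follows these S100 genes and gives no measure of monocyte content. S100A12, the most abundant, had an adjusted p of 0.927 in limma. The pan-leukocyte genes were not called (0 of 7 by limma and by limma-voom, 2 higher at an unadjusted p under 0.05), and their summed level was 129.5 to 191 FPKM against 132 to 166 FPKM, with ARHGDIB as the most abundant (53.2 and 40.9 FPKM). Of 6 tested B and plasma cell genes, CD79A, CD79B and MZB1 were called higher by limma and 3 were not called, while limma-voom called CD79A and MZB1 but not CD79B (adjusted p = 0.0681). CD79A was at 4.34 ± 1.24 FPKM (SD, n = 7) against 0.919 ± 0.263 FPKM (SD, n = 4), CD79B at 1.31 ± 0.591 against 0.266 ± 0.137 FPKM and MZB1 at 16.7 ± 6.37 against 3.78 ± 1.73 FPKM. The non-diabetic mean of CD79B lay under the 0.5 FPKM of the filter. CD79B was thus tested through its diabetic wounds, which limits what its call shows. XBP1, the most abundant, was at 145 and 138 FPKM. MS4A1 and PAX5, which define B cells, were under the filter, and the summed level of these 8 genes was 183 to 259.7 FPKM against 155 to 199 FPKM. The part of these cells in the CD14 and CSF2RA results was not tested.

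Of the remaining lists, the neutrophil (5 tested), dendritic cell (8), mast cell and eosinophil (3), T and NK cell (10), fibroblast and myofibroblast (10), endothelial (8) and skeletal muscle (1) genes had 0 called by limma and by limma-voom. At an unadjusted p under 0.05 the mast cell and eosinophil list had 1 higher, the T and NK cell list 1 higher and 1 lower, the fibroblast list 1 lower and the others 0. Of 9 tested keratinocyte genes, KRT15 was called higher, and of 6 tested adipocyte and sebaceous genes, LEP was called lower (limma). Limma-voom kept the call of LEP and not that of KRT15 (adjusted p = 0.0727). KRT15 averaged 15.5 ± 7.32 against 3.35 ± 4.44 FPKM, and LEP 0.156 ± 0.156 against 1.31 ± 0.753 FPKM. The diabetic mean of LEP lay under the 0.5 FPKM of the filter. LEP was thus tested mainly through its non-diabetic wounds, which limits what its call shows. The summed keratinocyte level was 45.5 to 6483 FPKM against 289.5 to 2897 FPKM. The most abundant genes of these lists, with mean FPKM in diabetic and then non-diabetic wounds, were MMP9 (24.9 and 35.5), FSCN1 (187 and 168), MS4A2 (3.44 and 2.47), NKG7 (19.9 and 14.4), COL3A1 (12614 and 14812), PECAM1 (91.8 and 90.4), DES (31.9 and 7.73) and FABP4 (403 and 209.85). The diabetic mean of DES rests on replicate 3, the wound with skeletal muscle transcripts. In the other diabetic wounds all the muscle genes together summed to 6.42 to 8.55 FPKM. XCR1, CLEC10A, CD8A, AWAT1, AWAT2 and MC5R were under the filter.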

How the data were processed

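Reads were cleaned by the authors in fastp and aligned by HISAT2 2.2.1 (build Sscrofa11.1), then assembled by StringTie 2.2.3 and counted on genes by featureCounts 2.0.6. The authors deposited FPKM, whose formula is not given in the sources used here. Multiplied by gene length, 100.0% of the deposited FPKM were whole multiples of 1 read, within 0.05 reads, and these reads were used for depth and for limma-voom alone. Samples were grouped by their labels (7 diabetic, 4 non-diabetic wounds). The filter kept genes that reached 0.5 FPKM in 4 or more libraries. Log2(FPKM + 0.5) then entered limma 3.58.1 (lmFit and a trended eBayes, R 4.3.3); this scale understates changes of low genes. Single genes and ratios were compared by exact two-sided permutation of 330 splits (Python 3.11.15, numpy 2.4.6, pandas 2.3.3). Sequences, motifs and copies came from the RefSeq annotation, with Biopython 1.88 and minimap2 2.31-r1302; figures were drawn with matplotlib 3.10.9. The fit was tested on simulated data.

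The genes and lists were chosen with earlier results of these data known. Named are the 9 members, and of each list every called gene, the most abundant tested gene, and genes under the filter where 3 or fewer, besides the 3 genes most like each member. SRY, EIF1AY, DHRSX, CD99 and the copies were named after their values were seen. Of the listed genes, 17 symbols were not analysed here. Alternatives changed the pseudocount, filter, scaling, trend, library weights, a replicate block, the letter in the library name as covariate, the wounds included and voom, and copies were summed in an alternative added after seeing the data. The upstream window of 1 member and 1 gene of the B and plasma cell list are not reported here.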

Additional observations from a re-analysis of the deposited data

Results flagged for a closer look

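LYZ in diabetic replicate 4 lay far from the other wounds of its group by Dixon's criterion, at 5.3 on the log2(FPKM + 0.5) scale, where its gap to the next wound took up 0.756 of the group's range. It was the only flag among 42 sets of values (9 genes on the FPKM and on the log2 scale and 3 log2 ratios, in both groups), where chance flags about 1 in 20. On the FPKM scale the same gap was 0.36 of the range and passed no limit, and the log2 scale was added after the values were seen. Of the 3 loci related to members, LOC110257903, the Y-chromosome copy, overlapped between groups (3.99 and 5.42 FPKM), and the other 2 had a signal in all 7 diabetic wounds above every non-diabetic wound. LOC102161330 lies beside CSF2RA on the same scaffold, with a coding sequence 59.7% identical over 1149 aligned bases and 0 shared runs of 50 bases. Its mean was 0.862 FPKM in diabetic wounds, from 43 to 90 reads, against 0.23 FPKM in non-diabetic wounds, from 12 to 35 reads. The log2 fold change was 0.89 (adjusted p = 0.0116 in limma). All its non-diabetic values, 0.169 to 0.363 FPKM, lay under the 0.5 FPKM of the filter. It was therefore tested only through its diabetic wounds, which limits what its call shows. LOC100520753, the relative of CD68 on chromosome 8, had a mean of 7.65 FPKM in diabetic against 4.26 FPKM in non-diabetic wounds (0.80, adjusted p = 0.0516 in limma), so it missed the threshold.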

How the results depend on the processing

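The number of members called higher, 2, was 1 without the filter on low values and 1 with copies summed, 0 with the 2 wounds of low KRT5 left out, and 0 to 2 when single wounds were left out. The number called lower was 0 in all 24 alternatives. CD14 kept its call in 12 of the 24 and CSF2RA in 19, and the other 7 members were called in none. With 9 wounds the adjusted p in limma was 0.0918 for CD14 and 0.0627 for CSF2RA. SPI1 turned to −0.031 under quantile normalization and −0.0050 at equal summed FPKM, and ran from −0.027 to 0.13 with single wounds left out, LYZ from −0.53 to 1.24. Over all genes, calls higher and lower were 406 and 416 with library weights, 106 and 81 with 9 wounds, and 104 to 236 and 75 to 247 with single wounds left out, the fewest without non-diabetic replicates 3 and 1. The ratio of CSF2RA to CSF2RB passed in 14 of the 15 alternatives run on it, and not with copies summed (0.25). CSF1 to CSF1R ran from −0.29 to 0.068 and CD14 to CD68 from 0.27 to 0.51 with single wounds left out, the latter passing (exact permutation, adjusted over the 3 ratios) without non-diabetic replicate 3 alone. With the replicate block of the labels, 0 members and 11 and 5 of all genes were called higher and lower, and SPI1 was at −0.051. The replicate numbers do not pair the wounds, since the groups are wounds of different animals. Deviations of same-numbered wounds correlated at −0.27, 0.22, 0.07 and −0.48, and those of diabetic replicate 4 and non-diabetic replicate 1 at 0.865. These correlations cannot decide on pairing, because the deviations within a group depend on each other. Causes of these changes were not tested. Depth was low for LOC102161330 (12 to 90 reads) and CSF2 (2 to 20 reads).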

Other observations

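The scaffold that carries CSF2RA holds 20 genes, of which 10 were tested. CSF2RA, IL3RA and LOC102161330 were called higher and LOC110258199 was called lower in diabetic wounds (limma). Over all tested genes 1.35% were called higher and 1.66% lower. LOC110258199 averaged 0.438 FPKM in diabetic wounds, under the 0.5 FPKM of the filter, against 1.93 FPKM in non-diabetic wounds, which limits what its call shows. LOC102161330 passed the filter only through its diabetic wounds. SLC25A6, the most abundant, was at 531 and 434 FPKM (log2 fold change 0.30, adjusted p = 0.221 in limma) and ASMTL at 5.58 and 5.56 FPKM. Of the 147 genes on the annotated Y chromosome, 8 passed the filter and 1 was called higher. DHRSX, on that chromosome at 5248447 to 5374873, was lower in every diabetic wound, at 4.45 ± 0.960 FPKM (SD, n = 7) against 6.51 ± 0.762 FPKM (SD, n = 4), without being called (log2 fold change −0.52, adjusted p = 0.109 in limma), and CD99 was at 125 ± 35.9 against 91.1 ± 15.7 FPKM (0.41, adjusted p = 0.390 in limma). These genes were chosen after their values were seen.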
